A study of Mus musculus with 34 samples.

Results

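H3K9me3, the trimethyl mark on lysine 9 of histone H3, was profiled in microglia of the mouse hippocampus from controls (Ctrl) and from mice labelled FGR, in a study whose title names intrauterine growth restriction. The comparison rests on 6 of the 34 libraries of the series, namely replicates 1 to 3 of each group, whose peak lists were deposited as broad peaks. Both groups had the genotype Tmem119-tdTomato+/-, a red fluorescent reporter at a microglial gene, and the age on the labels of these 6 libraries is 3 weeks after birth. Whether a replicate is its own animal or a pool is not in the labels, nor is the way growth was restricted. The spread between libraries, on which all p-values rest, may thus be technical. A replicate 4 exists for each group, without an age and as narrow peaks, and was used only as a check. The groups were cut at different thresholds, so the 15000 peaks of each list with the highest −log10 p-value were taken, here called the top peaks, and their positions were compared.

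H3K9me3 is laid down by methyltransferases such as Setdb1 and the Suv39h enzymes, and it is bound by HP1 proteins that keep chromatin compact. In mammals it is known for covering repeats, retrotransposons and clusters of zinc finger genes. At such clusters the KRAB zinc finger proteins, many of which silence retrotransposons, recruit Setdb1 through the corepressor Trim28. Microglia are the resident macrophages of the brain, and the genes they express normally lack this mark.

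A few promoters show which kinds of site the lists picked. The sequences are those of the RefSeq table of GRCm38.p6, the assembly behind mm10, given 5′ to 3′ on the strand of the gene as the 250 bases before its outermost start, with each CpG in capitals. Gm46898 (chr4:147411472-147411721, plus strand) stands for promoters covered over at least 50% by top peaks in the 3 Ctrl and in no FGR library, and Zfp988 (chr4:147305354-147305603, plus strand) for those covered in all 6. Duxf3 (chr10:58233090-58233339, minus strand) and Gm3973 (chr12:19489970-19490219, plus strand) passed the same 50% rule in the 3 FGR and in no Ctrl library. The Duxf3 promoter was nevertheless covered over 16.3% and 22.3% in Ctrl replicates 1 and 2. All coverage of promoters refers to the RefSeq promoter, which reaches from 250 bases before the start to 50 after it, whereas CpG were counted in the 250 bases only.
Gm46898: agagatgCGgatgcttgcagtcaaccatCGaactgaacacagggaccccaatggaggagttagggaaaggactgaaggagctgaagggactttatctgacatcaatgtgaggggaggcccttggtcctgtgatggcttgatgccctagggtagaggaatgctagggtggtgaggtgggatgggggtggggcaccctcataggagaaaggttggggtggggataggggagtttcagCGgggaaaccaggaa
Zfp988: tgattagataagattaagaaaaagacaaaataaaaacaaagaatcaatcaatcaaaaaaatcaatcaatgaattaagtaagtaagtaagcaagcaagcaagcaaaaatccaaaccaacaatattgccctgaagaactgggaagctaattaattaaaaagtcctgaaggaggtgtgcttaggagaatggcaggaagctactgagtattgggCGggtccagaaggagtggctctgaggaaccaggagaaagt
Duxf3: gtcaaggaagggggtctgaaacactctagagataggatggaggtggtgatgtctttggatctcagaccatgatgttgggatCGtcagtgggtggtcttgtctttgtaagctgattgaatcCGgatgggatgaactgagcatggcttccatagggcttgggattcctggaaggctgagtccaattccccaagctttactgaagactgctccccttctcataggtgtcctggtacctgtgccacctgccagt
Gm3973: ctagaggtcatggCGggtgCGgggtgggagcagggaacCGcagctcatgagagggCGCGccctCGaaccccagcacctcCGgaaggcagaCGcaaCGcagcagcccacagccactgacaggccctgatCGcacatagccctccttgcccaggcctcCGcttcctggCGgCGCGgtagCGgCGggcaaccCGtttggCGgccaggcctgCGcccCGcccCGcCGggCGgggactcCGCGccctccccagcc
The Gm46898 window holds 3 CpG, that of Zfp988 1, that of Duxf3 2 and that of Gm3973 25. The 18 promoters covered only in FGR had a median of 9.5 CpG in this window (range 2 to 25), and the 10 covered only in Ctrl, 9 of them on chromosome 4 and from 7 genes, since Gm30681 and Zfp982 have several starts, had a median of 2 (range 0 to 3). By library, the covered promoters numbered 70, 64 and 40 in Ctrl, each with a median of 2 CpG, and 95, 77 and 91 in FGR, with medians of 6, 7 and 7. Over all 32585 promoter windows the median was 6, and 92.2% held the letters CG at least once, which read the same on both strands. The promoters covered in Ctrl were thus poorer in CpG than the average promoter, and those covered in FGR were near it. On chromosome 4 lay 17, 19 and 19 of the promoters covered in Ctrl, 12, 11 and 10 of those covered in FGR and 2053 of all 32585. The part of chromosome 4 in the CpG medians was not tested. These are descriptions of few windows chosen by their coverage, with no test.

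The strength of the peaks differed between groups before any position was compared. The Ctrl lists held 492938, 450311 and 345501 peaks in replicates 1 to 3 and reached down to −log10 p-values near 1, whereas the FGR lists held 18029, 15522 and 22903. The −log10 p-value at rank 15000 was 1.98, 2.03 and 2.22 in Ctrl and 4.01, 4.02 and 4.11 in FGR, and the next peak in each list had the same value to these digits. Peaks with a q-value of at most 0.05 numbered 76, 78 and 70 in Ctrl and 13991, 15138 and 16485 in FGR. Nearly all top peaks of Ctrl were therefore below the usual significance threshold of the peak caller, while most of those of FGR were above it. The median fold enrichment of the top peaks, the authors' own value per peak, was 2.13, 2.19 and 2.35 in Ctrl and 3.47, 3.47 and 3.45 in FGR. The files give no read counts and sequencing depth is unknown.

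The lists also differed in how well replicates overlapped. Among the top peaks, 7.30% to 9.21% of those of a Ctrl library touched a top peak of another Ctrl library, against 47.1% to 49.6% between FGR libraries. Between groups, 4.21% to 8.61% of Ctrl top peaks touched those of an FGR library, and 5.19% to 10.5% of FGR top peaks touched those of a Ctrl library. The agreement of Ctrl libraries peak by peak was thus hardly above that between groups. With only the 200 strongest peaks of each list it was 33.5% to 46.0% within Ctrl, 52.0% to 54.0% within FGR and 14.5% to 22.5% between groups. On a coarser scale the Ctrl libraries did resemble each other. Across 1 Mb bins the percent of the bin covered by top peaks correlated at 0.944 to 0.965 within Ctrl, 0.961 to 0.964 within FGR and 0.56 to 0.682 between groups, as a description over bins that are not independent and with a few highly covered bins of chromosome 4 among them.

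**Figure D1:**
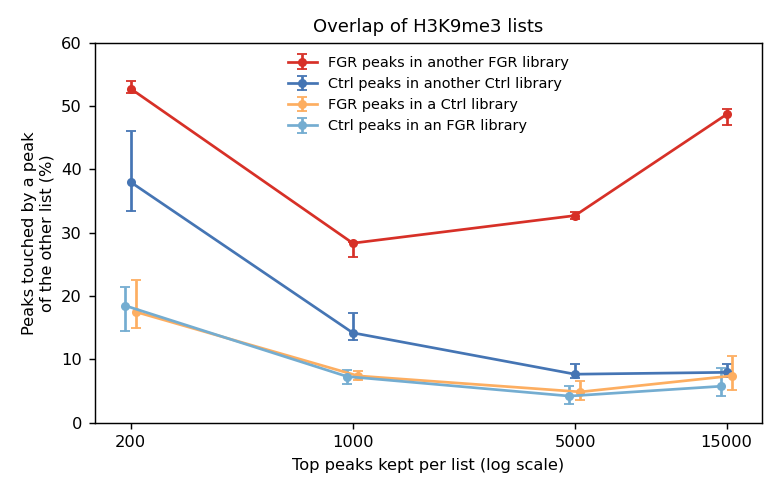
Percent of the top H3K9me3 peaks of one library touched by a top peak of another (vertical axis) against the number of top peaks kept per list (horizontal axis, log scale). Points are medians over pairs of libraries and bars their range; FGR replicates share 47.1% to 49.6% of 15000 peaks, and Ctrl replicates 7.30% to 9.21%.

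As a check of the cells, deposited H3K27ac peaks, a mark of active promoters and enhancers, lay within 1 kb of a gene end at 9 of 9 microglia markers in every Ctrl and FGR library. The summed H3K27ac length there was 30.1 to 31.3 kb in Ctrl and 15.4 to 19.6 kb in FGR. It was at 0 for 6 neuronal and 5 lymphocyte and neutrophil markers in all libraries, and at most 0.339 kb for 4 astrocyte, 2.05 kb for 5 oligodendrocyte, 1.71 kb for 4 endothelial and mural and 2.36 kb for 5 border-associated macrophage markers. In FGR alone, these sums were at most 0.217, 1.24, 1.07 and 1.57 kb, in the same order. Per library, 0 to 1 of the astrocyte and 2 of the oligodendrocyte markers had a peak in both groups. Of the endothelial and mural markers, 1 had a peak in Ctrl and 1 to 2 in FGR. Of the border-associated macrophage markers, 1 to 2 had one in Ctrl and 1 to 3 in FGR. The part of such cells in the H3K9me3 results was not tested.

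Measured against genes, the top peaks of FGR lay less often inside gene bodies than those of Ctrl, but nearer to genes when outside them. The share of top peaks with their midpoint in the body of a protein-coding gene was 30.9%, 30.8% and 29.0% in Ctrl and 26.2%, 25.6% and 26.3% in FGR, and the groups did not overlap. Gene bodies took up 39.6% of the span between the first and the last gene of each chromosome, so both groups lay below the share of the genome in genes. The difference was −4.23 percentage points (30.2 ± 1.07% in Ctrl, 26.0 ± 0.392% in FGR; SD, n = 3 each; two-sided exact permutation p = 0.1). With 3 against 3 libraries this test cannot go below 0.1, so no value per library could pass a threshold of 0.05.

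Outside gene bodies the median distance to the nearest gene was 75.2, 92.6 and 91.8 kb in Ctrl and 67.3, 66.7 and 68.9 kb in FGR. Every FGR library lay below every Ctrl library (86.5 ± 9.82 kb against 67.7 ± 1.12 kb; n = 3 each, exact permutation p = 0.1). With the 5000 strongest peaks the groups overlapped, at 70.2, 86.1 and 85.7 kb in Ctrl and 75.2, 70.3 and 70.5 kb in FGR. The range of 10 to 50 kb from a gene held 19.1%, 17.9% and 18.2% of the top peaks in Ctrl and 22.9%, 23.1% and 22.9% in FGR. Peaks farther than 500 kb from any gene made up 9.31%, 10.3% and 10.6% in Ctrl and 8.66%, 8.96% and 9.06% in FGR.

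Gene deserts, here gaps of at least 500 kb between protein-coding genes, held a similar share in both groups. It was 31.2%, 34.7% and 35.3% in Ctrl and 31.2%, 31.6% and 31.7% in FGR, against 29.7% of the span. The groups overlapped, since Ctrl replicate 1 was as low as the FGR libraries (33.7 ± 2.21% against 31.5 ± 0.281%; n = 3 each, exact permutation p = 0.3). For gaps of at least 1000 kb the shares were 20.4%, 23.3% and 23.8% in Ctrl and 19.80%, 19.999% and 19.997% in FGR, which did not overlap (n = 3 each, exact permutation p = 0.1), against 19.7% of the span.

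**Figure D2:**
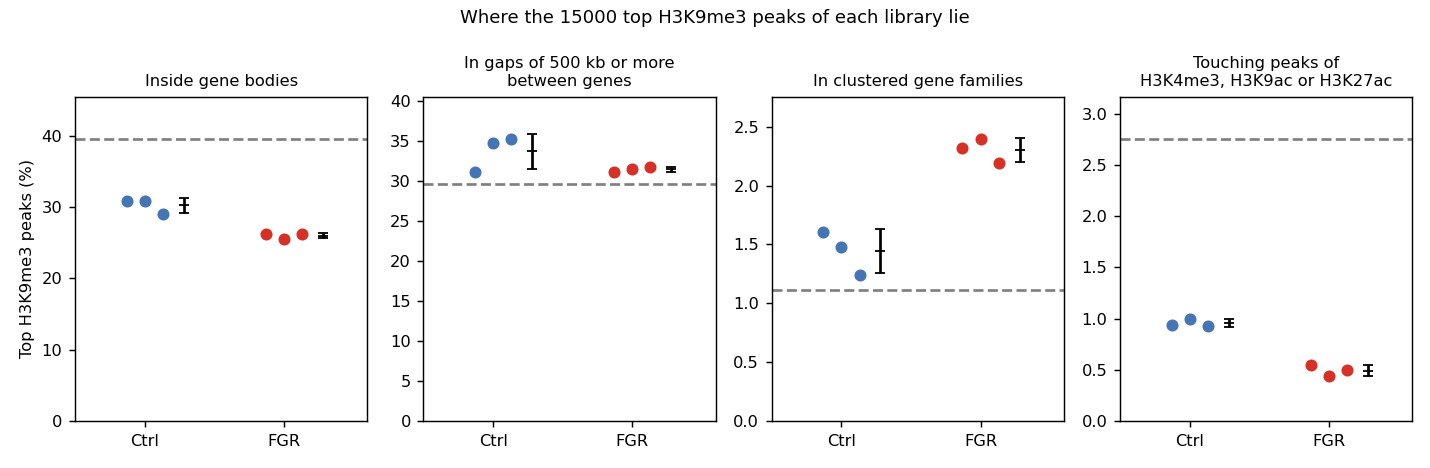
Percent of the 15000 top H3K9me3 peaks of each library (vertical axes) in gene bodies, in gaps of at least 500 kb between genes, in clustered gene families and touching active-mark regions called in all 8 libraries of a mark. Points are libraries, the bar beside them is the mean ± SD (n = 3) and the dashed line is the share of the span taken up by the feature; the 2 groups overlap only in the gaps between genes.

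Few top peaks touched regions of active marks, here merged regions with a peak in each of the 8 libraries of a mark. Such regions of H3K4me3, H3K9ac or H3K27ac together covered 2.75% of the span. Of the top H3K9me3 peaks, 0.936%, 0.996% and 0.930% touched one in Ctrl, against 0.543%, 0.436% and 0.496% in FGR. The groups did not overlap (n = 3 each, exact permutation p = 0.1), and both lay below the share of the span under these regions. Touching an active mark means touching such a region throughout. The difference came with H3K27ac, which 0.920 ± 0.0367% of top peaks touched in Ctrl and 0.412 ± 0.0544% in FGR. Among the few peaks with a −log10 q-value of at least 2 (28, 35 and 37 in Ctrl on chromosomes 1 to 19 and X), 25%, 34.3% and 37.8% touched an active mark in Ctrl and 0.989%, 0.743% and 0.924% in FGR, so the strongest Ctrl peaks touched active marks more often than the top peaks as a whole. For H3K9ac the order was the other way, 0.225 ± 0.0380% and 0.319 ± 0.0486% (n = 3 each).

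The top peaks of FGR stood closer together, and Ctrl had more of the longest ones. The median width was 576, 489 and 401 bp in Ctrl and 499, 493 and 524 bp in FGR, which overlapped (n = 3 each, exact permutation p = 0.7). The median gap to the next top peak was 105, 108 and 102 kb in Ctrl and 69.6, 65.5 and 73.4 kb in FGR, and 4.67%, 3.25% and 3.20% of gaps were under 2 kb in Ctrl against 13.8%, 14.9% and 12.8% in FGR. Top peaks longer than 10 kb numbered 83, 66 and 41 in Ctrl and 6, 5 and 7 in FGR. In these gap measures and in the number of long peaks every FGR library stood apart from every Ctrl library (n = 3 each, exact permutation p = 0.1). The lists were cut at unlike thresholds, and the part of this in peak length was not tested. The covered length did not separate the groups, with 15.6, 13.6 and 11.03 Mb in Ctrl and 10.1, 9.84 and 11.05 Mb in FGR (n = 3 each, exact permutation p = 0.2).

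The top peaks were spread over the chromosomes in different proportions. Chromosomes 12, 7, 4, X and 5 held a larger share in FGR and 12 chromosomes a smaller one, by limma on log2(percent + 0.1) with Benjamini-Hochberg adjustment over 21 chromosomes; the background of calls was therefore 23.8% higher and 57.1% lower. Shares sum to a fixed total, so a gain at some chromosomes lowers the others. Chromosome 12 held 4.85%, 4.57% and 4.89% of the top peaks in Ctrl and 6.73%, 6.99% and 6.93% in FGR, with no overlap. The log2 difference was 0.52 (SE 0.044, limma adjusted p = 4.95e-06).

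The excess on chromosome 12 lay in 1 stretch near its start. The window from 18 to 25 Mb, chosen after its values were seen, held 131, 74 and 114 top peaks in Ctrl and 460, 503 and 471 in FGR. Outside it, the other peaks of chromosome 12 made up 4.01%, 4.09% and 4.17% of the remaining top peaks in Ctrl and 3.78%, 3.77% and 3.92% in FGR, so the order of the groups turned. In the narrow lists of replicate 4 this window held 0 of 257 peaks in Ctrl and 329 of 11204 in FGR.

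Chromosome 7 held 6.31%, 5.38% and 6.11% in Ctrl and 7.49%, 7.51% and 7.49% in FGR (log2 difference 0.34, limma adjusted p = 0.000778), and chromosome 4 held 7.33%, 6.70% and 6.73% against 8.36%, 8.36% and 8.41% (0.27, limma adjusted p = 0.000778). On both the groups did not overlap. Chromosome X had 3.01%, 3.21% and 2.53% in Ctrl and 3.37%, 3.54% and 3.37% in FGR (0.23, limma adjusted p = 0.0182), and chromosome Y 1.19%, 1.35% and 1.13% against 0.707%, 0.62% and 0.687% (−0.78, limma adjusted p = 4.95e-06). The labels give no sex, and its part in the values of X and Y was not tested. Chromosome 19, which is rich in genes, had 1.69%, 1.78% and 1.95% in Ctrl and 1.44%, 1.43% and 1.31% in FGR (−0.35, limma adjusted p = 0.000778). Only 4 chromosomes were lower with the 5000 strongest peaks, and 4 higher.

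**Figure D3:**
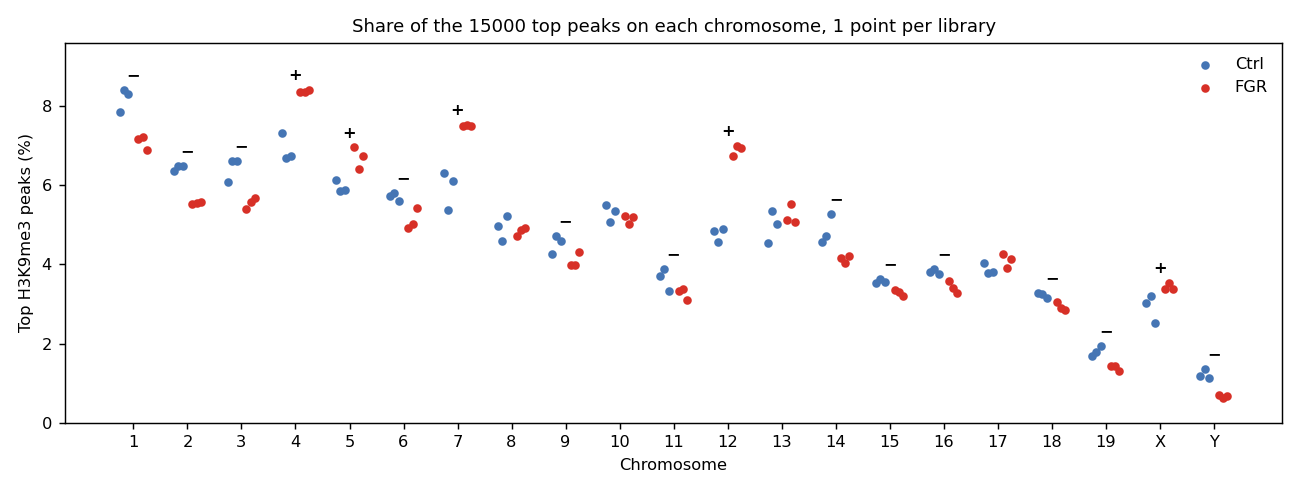
Percent of the 15000 top H3K9me3 peaks (vertical axis) on each chromosome (horizontal axis), 1 point per library. A plus or minus marks chromosomes with a limma adjusted p under 0.05 and its direction in FGR; chromosome 12 rises from 4.57% to 4.89% in Ctrl to 6.73% to 6.99% in FGR.

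Clustered gene families took up a larger share of top peaks in replicates 1 to 3 of FGR, and zinc finger genes made up most of it. Over the 2613 genes of such families, 1.61%, 1.48% and 1.24% of top peaks lay in family members in Ctrl and 2.32%, 2.396% and 2.19% in FGR, against 1.11% of the span (n = 3 each, exact permutation p = 0.1). In replicate 4 the order was the other way, with 21.6% of 199 peaks in Ctrl and 2.18% of 10917 in FGR. Zfp zinc finger genes, many of which encode DNA-binding repressors, held 0.977%, 0.853% and 0.747% in Ctrl and 1.73%, 1.84% and 1.56% in FGR, against 0.511% of the span. The 39 Hox genes, which pattern the body axis and are commonly kept silent by another mark, H3K27me3, had 0 top peaks in all 6 libraries. Cytochrome P450 genes, for enzymes of drug and steroid metabolism, held 0.0683%, 0.0751% and 0.0679% in Ctrl and 0.136%, 0.116% and 0.116% in FGR, and olfactory receptors 0.0683%, 0.0751% and 0.0543% against 0.0407%, 0.0408% and 0.0272%.

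Coverage of the Zfp genes went the opposite way to the number of peaks. Of the summed length of 397 Zfp gene bodies, 6.29%, 6.25% and 4.73% lay under top peaks in Ctrl and 1.44%, 1.56% and 1.54% in FGR, although 62, 69 and 69 genes had a top peak in Ctrl and 92, 91 and 92 in FGR. Most of this came from 16 Zfp genes of 3 neighbouring bins of chromosome 4, where 62.8%, 62.5% and 46.0% were covered in Ctrl and 10.1%, 12.02% and 11.2% in FGR. The other 381 Zfp genes were covered over 0.901%, 0.872% and 0.793% in Ctrl and 0.612%, 0.567% and 0.624% in FGR, and 46, 53 and 54 of them had a top peak in Ctrl against 77, 77 and 78 in FGR. Relative to the coverage of all gene bodies the other Zfp genes stood at 2.01, 2.12 and 2.50 times in Ctrl and 2.60, 2.50 and 2.42 times in FGR, where the groups overlapped. The choice of these genes was made after their values were seen.

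Within the Zfp cluster of chromosome 4, from 145 to 148 Mb, long domains in Ctrl stood against many short peaks in FGR. The window held 178, 133 and 111 top peaks over 1426, 1359 and 990.1 kb in Ctrl and 274, 296 and 260 over 222, 262 and 255 kb in FGR. The longest was 46.2, 55.9 and 63.9 kb in Ctrl and 7.25, 6.17 and 9.64 kb in FGR, and the median width 4456, 5839 and 4948 bp against 584.5, 600.5 and 693 bp. The strongest peak had a −log10 p-value of 5.02, 4.08 and 4.06 in Ctrl and 9.34, 11.3 and 10.5 in FGR. Ctrl thus had the longer cover and FGR the more numerous peaks, while the −log10 p-values also chose the top peaks and differ in their lower limit between groups. In replicate 4 the window held 69 of 257 peaks in Ctrl and 225 of 11204 in FGR, none longer than 1.94 kb, as narrow lists give short peaks.

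Gene bodies were tested for the percent of their length under top peaks, with limma over the 3396 genes that had a top peak in at least 2 libraries. In FGR, 107 genes (3.15%) were covered more and 25 (0.736%) less at an adjusted p under 0.05, and 300 and 175 before adjustment. Over all tested genes the median difference was −0.14 percentage points. Of the genes covered more, 75 had no top peak in any Ctrl library, and 9 of those covered less had none in FGR. Such genes passed the filter only through the group where they are high, as did 442 and 716 of all tested genes. A gene with a top peak in only 1 library of the lower group and in all 3 of the other, such as Duxf3 or Flg2, met the filter through that other group too. The calls of all such genes are therefore descriptions, and no p-value is given for them below. Ctrl was not without peaks at the 75 genes, since 65 of them had a peak in every full Ctrl list, and 1 had none in any of them. Of all 107, 81 were covered more by the full Ctrl lists than by the full FGR lists, which are shorter. Calls of higher coverage therefore describe which genes ranked high within a list. Leaving out Ctrl replicate 3 gave 65 genes covered more and 78 less, Ctrl replicate 2 gave 60 and 53, and Ctrl replicate 1 gave 72 and 58, so that leaving out any Ctrl library moved the balance of directions.

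Of 125 tested Zfp genes, 10 were covered less and 2 more (limma; background 0.736% and 3.15%), with a list median of −0.005 percentage points. All 10 belong to the cluster of chromosome 4. Zfp988 (chr4:147305604-147334067) was covered over 95.2%, 94.4% and 94.7% of its body in Ctrl and 8.22%, 5.71% and 3.36% in FGR, and the groups lay far apart. The difference was −89.0 percentage points (SE 1.28, limma adjusted p = 4.56e-05). This rested on the ranking, since with peaks ranked by fold enrichment the means were 2.3% and 1.90% (limma adjusted p = 0.95), and with the top 5000 peaks 57.8% and 3.51% (limma adjusted p = 0.441). Of the 10 genes only Zfp600 kept its call under either setting. Zfp600 (chr4:146156827-146198756) fell from 95.2 ± 2.42% to 11.2 ± 1.49% (limma adjusted p = 6.25e-05) and Zfp980 (chr4:145670697-145704437) from 87.7 ± 13.4% to 3.28 ± 2.22% (limma adjusted p = 0.00634; SD, n = 3 each). Zfp984, Zfp534, Zfp991, Zfp992, Zfp978, Zfp981 and Zfp993, named after their values were seen, were covered over 39.3% to 93.9% on average in Ctrl and 1.02% to 27.3% in FGR. How alike these clustered genes are in sequence was not examined. The way reads with several matches were placed is not given in the sources used here, so the share of each gene is uncertain. The part of the unlike thresholds of the lists in the cover of these genes was not tested either. The 2 Zfp genes covered more lay elsewhere, Zfp69 on chromosome 4 with 0.932%, 0% and 0% in Ctrl and 9.77%, 8.78% and 9.98% in FGR, and Zfp52 on chromosome 17 with 0%, 0% and 1.02% against 3.78%, 2.82% and 2.65%.

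**Figure D4:**
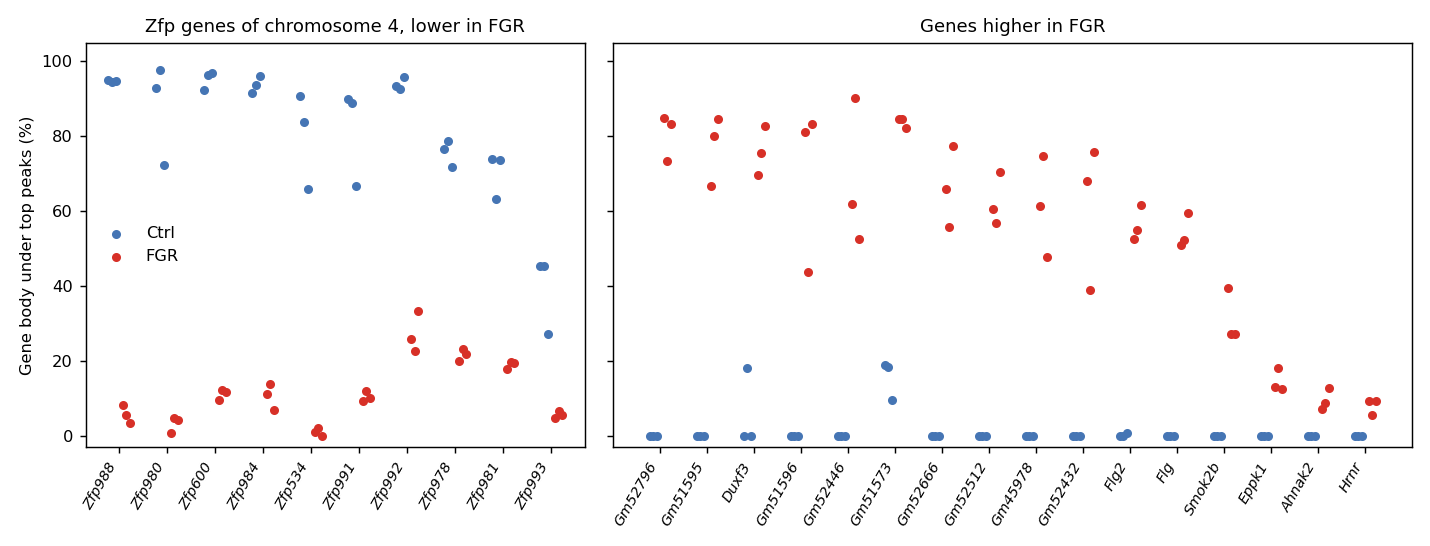
Percent of the gene body under top H3K9me3 peaks (vertical axis) in each library for Zfp genes of chromosome 4 with lower coverage in FGR (left) and for genes with higher coverage (right). Points are libraries; Zfp988 lies at 94.4% to 95.2% in Ctrl and 3.36% to 8.22% in FGR.

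Other genes covered less had far smaller values. Sp140 (chr1:85587491-85645040), for a nuclear body protein of immune cells, fell from 15.2%, 12.5% and 12.8% to 2.62%, 3.26% and 3.33% (limma adjusted p = 0.00535). Vps33a, for a protein of vesicle fusion at the lysosome, had 6.63%, 6.65% and 8.77% in Ctrl and no top peak in FGR, and the same held for Zranb1, for a ubiquitin protease, with 2.55%, 4.52% and 4.89%, and for the claudin gene Cldn34d on X, with 2.56%, 2.67% and 2.76%. In all 9 genes covered less that had no top peak in FGR, the Ctrl values averaged at most 7.35% of the body. Commd10 fell from 1.68%, 2.67% and 2.16% to 0.166%, 0.290% and 0%. Sp140 lost its call with the top 5000 peaks (limma adjusted p = 0.127) and ranked by fold enrichment (0.446), and so did Commd10. Vps33a kept its call in both. Cldn34d kept it with the top 5000 peaks and was not tested ranked by fold enrichment. Zranb1 was not tested in the former and lost its call in the latter.

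The largest gains were at short predicted genes. Gm52796 (chr5:144672717-144677468) had no top peak in Ctrl and was covered over 85.0%, 73.5% and 83.3% in FGR. Gm51573 (chr8:55372493-55374919) was covered over 19.0%, 18.5% and 9.64% in Ctrl and 84.5%, 84.5% and 82.1% in FGR (limma adjusted p = 0.000794), and its neighbours Gm51595 and Gm51596 over 0% in Ctrl and on average 77.2% and 69.4% in FGR. Duxf3, a member of the Dux family of double homeobox factors of the early embryo (chr10:58229505-58233089), had 0%, 18.3% and 0% in Ctrl and 69.7%, 75.5% and 82.9% in FGR. Gm52446 and Gm52432 on X, Gm52666 on chromosome 4, Gm52512 on chromosome 2 and Gm45978 on chromosome 7 had no top peak in Ctrl and averaged 61.0% to 68.2% in FGR. Of the genes covered more, 28 (26.2%) carried a Gm or LOC symbol, mostly given to predicted genes, against 213 (6.27%) of all tested genes, and 14 were covered over more than 50% of the body in FGR. The full Ctrl lists covered Gm52796 over 42.8%, Duxf3 over 42.9% and Gm51595 over 0.392% on average, so that of these 3 only Gm51595 was nearly free of peaks there. With the top 5000 peaks, only Gm51573 of the genes named in this paragraph kept its call (limma adjusted p = 0.000715). Ranked by fold enrichment, Gm51573 and Duxf3 were not among the tested genes, Gm51596 and Gm52432 lost their calls and the others kept theirs.

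Some known genes, named after their values were seen, were covered over large parts in FGR. Flg, for filaggrin of the outer skin (chr3:93273546-93293689), had no top peak in Ctrl and was covered over 51.0%, 52.4% and 59.5% in FGR. Flg2 had 0%, 0% and 0.759% in Ctrl and 52.5%, 55.0% and 61.7% in FGR, and Hrnr, for hornerin, 0% and 8.07 ± 2.16% (n = 3 each). Eppk1, for epiplakin, and Ahnak2 were at 0% in Ctrl and at 13.2%, 18.04% and 12.5% and at 7.22%, 8.91% and 12.8% in FGR. All 5 encode proteins with internal repeats. In the full Ctrl lists Flg was covered over 23.3%, Flg2 over 45.0% and Hrnr over 28.7% on average, Eppk1 over 1.34% and Ahnak2 over 1.62%. Smok2b, a sperm motility kinase gene, had 39.5%, 27.2% and 27.2% in FGR and none in Ctrl. Some further genes at 0% in Ctrl were covered over small parts in FGR. Casp8, for a protease of cell death signalling, had 6.17%, 4.83% and 3.92% and Sirt5, for a mitochondrial deacylase, 7.78%, 8.62% and 7.72%. Prdm9, for the H3K4 methyltransferase that marks meiotic recombination sites, had 3.16%, 2.37% and 2.95% and Trim71, for a regulator of early development, 2.67%, 1.98% and 1.65%. Of Hrnr, Smok2b, Casp8, Sirt5 and Prdm9 the full Ctrl lists covered more than the full FGR lists. With the top 5000 peaks, only Flg of the genes named in this paragraph kept its call. Ranked by fold enrichment, Eppk1 and Smok2b were not among the tested genes and the others kept their calls.

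Receptor and immune families had few tested members, and the genes covered more among them entered the test only through FGR, so that their counts support nothing (background 3.15%). Of 23 tested vomeronasal type 2 receptor genes, which encode pheromone receptors, 2 were covered more, Vmn2r35 with 0% in Ctrl and 11.5%, 12.7% and 11.3% in FGR and Vmn2r38 with 0% and 9.05%, 5.49% and 7.38%. Of 6 tested olfactory receptor genes, 2 were covered more, Olfr165 with 2.399%, 2.998% and 2.86% in FGR and Olfr631 with 3.58%, 4.18% and 5.998%, both at 0% in Ctrl. H2-T24, a gene of the MHC class I region, the only tested member of its list, had 10.1%, 11.8% and 13.9% in FGR and 0% in Ctrl. The full Ctrl lists covered all 5 of these genes over a larger part than the full FGR lists.

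Among the 32 lists, 22 others had tested members and no call by limma. Of their 121 tested genes, 3 were covered more and 1 less at an unadjusted p under 0.05, against 300 and 175 of all 3396 tested genes. The 33 tested clustered protocadherins, cell adhesion genes of neurons, had 0 in either direction, and their list median was −0.15 percentage points, close to that of all genes. All 11 tested UDP glucuronosyltransferase genes, several of which share exons, had lower means in FGR (list median −2.85 percentage points), as had 2126 of all 3396 tested genes. Their spread was wide, with Ugt1a1 at 100%, 89.0% and 0% in Ctrl and 32.2%, 29.04% and 14.98% in FGR.

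Genes of microglia held top peaks in small numbers, which were not tested against other genes. Over all genes, 12.5%, 12.6% and 11.4% had a top peak in the body in Ctrl and 9.79%, 9.48% and 9.99% in FGR. Of 30 homeostatic microglia genes, 2, 2 and 4 had a top peak in the body in Ctrl and 1, 1 and 1 in FGR. The FGR gene was Pros1, for protein S, a ligand that bridges dying cells to Mertk and its relatives, with 1.92%, 1.69% and 3.72% of its body in FGR and 0% in Ctrl. It was not called, and it entered the test only through FGR. In Ctrl, Mertk itself had 0.172%, 0% and 0.176%, Mef2a 0.410%, 0% and 0.321%, and Tgfbr2 only 1.40% in replicate 3. Of 24 disease-associated microglia genes, 0, 2 and 2 had a top peak in Ctrl and 0, 2 and 0 in FGR, and of 18 interferon genes 1, 2 and 0 against 0, 0 and 0. Oligodendrocyte (13 genes) and lymphocyte and neutrophil (12 genes) lists had none in any library.

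Of 29 genes of the H3K9 methylation machinery, 6, 5 and 1 (20.7%, 17.2% and 3.45%) had a top peak in Ctrl and 1, 3 and 1 (3.45%, 10.3% and 3.45%) in FGR, to be read against the shares over all genes above, and none of the 5 tested passed limma, with 0 at an unadjusted p under 0.05. Setdb1, for the methyltransferase of zinc finger clusters and retrotransposons, had 3.39%, 4.05% and 0% in Ctrl and none in FGR, without a call. Of 25 germ line genes, 6, 9 and 4 had a top peak in Ctrl and 5, 4 and 6 in FGR. Tdrd1, of the piRNA pathway, was at 1.66%, 6.27% and 3.62% in Ctrl and 0%, 0% and 1.21% in FGR, without a call. Of 23 imprinted genes, 1, 7 and 4 had one in Ctrl and 4, 4 and 3 in FGR, among them Snrpn in all 6 libraries with 0.0537% to 0.850% of its body. The zinc finger gene Peg3 was at 8.28%, 0% and 8.85% in FGR and 0% in Ctrl, without a call.

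Bins of 1 Mb were tested in the same way. Of 2576 bins, 34 (1.32%) had more cover in FGR and 26 (1.01%) had less (limma, adjusted p), against 203 and 388 at an unadjusted p under 0.05. Leaving out any FGR library left 5 or 6 bins covered more and 2 less. The smallest p fell on the bin of chromosome X from 170 to 171 Mb, which holds Asmt, for the last enzyme of melatonin synthesis, with 2.44, 1.46 and 0.466 kb under top peaks in Ctrl and 42.0, 40.9 and 46.7 kb in FGR (limma adjusted p = 0.000177). This was also the 1 bin covered more in FGR with all deposited peaks.

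On chromosome 12 the bin from 19 to 20 Mb had 16, 13 and 23 top peaks over 30.01, 31.2 and 27.3 kb in Ctrl and 82, 96 and 83 over 73.7, 66.8 and 77.8 kb in FGR (limma adjusted p = 0.00167). The bin of chromosome 8 from 55 to 56 Mb, home of Gm51573 and its neighbours, had 14.97, 18.7 and 14.4 kb in Ctrl and 40.2, 37.6 and 42.5 kb in FGR (limma adjusted p = 0.00211), and the bin of chromosome 3 from 93 to 94 Mb, with Flg, 3.69, 2.08 and 8.95 kb against 30.1, 30.2 and 34.1 kb (limma adjusted p = 0.00268). At the end of chromosome 4, from 152 to 154 Mb, 26, 19 and 13 top peaks in Ctrl stood against 114, 100 and 108 in FGR. In each of these windows the FGR libraries lay above all Ctrl libraries. The bins of chromosomes 8 and 3 also passed with the top 5000 peaks and ranked by fold enrichment. That of X missed when ranked by fold enrichment (limma adjusted p = 0.11). Those of chromosome 12 and of chromosome 4 from 152 to 153 Mb missed with the top 5000 peaks (limma adjusted p = 0.133 and 0.434). Except on X, the full Ctrl lists covered more of these bins than the full FGR lists.

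Among bins covered less, that of chromosome 7 from 64 to 65 Mb had 30.1, 30.5 and 34.4 kb under top peaks in Ctrl and 5.35, 4.42 and 7.02 kb in FGR (limma adjusted p = 0.000841). Most of the Ctrl cover lay in a region of 30009 bp, chr7:64465649-64495657, without a gene and 20.9 kb from Apba2, for an adaptor protein of neurons. It was covered over 28.8, 27.98 and 29.2 kb in Ctrl and not at all in FGR, and in replicate 4 the bin held 19 of 257 peaks in Ctrl and 5 of 11204 in FGR. The Zfp bins of chromosome 4 from 146 to 147 Mb and from 147 to 148 Mb fell from 40.6 ± 7.04% to 7.97 ± 0.740% and from 56.2 ± 7.19% to 12.8 ± 0.968% (n = 3 each; limma adjusted p = 0.00824 and 0.00268). Neither passed with the top 5000 peaks (limma adjusted p = 0.0838 and 0.0935) or ranked by fold enrichment (0.153 and 0.224), while the bin of chromosome 7 passed in both. The bins of chromosome 1 from 110 to 111 Mb, with 12.6, 10.2 and 12.7 kb against 1.49, 1.67 and 1.88 kb, and of chromosome 17 from 29 to 30 Mb, with 8.73, 9.43 and 9.15 kb against 1.99, 0.195 and 1.75 kb, followed (limma adjusted p = 0.00602 and 0.0122). The latter held a Ctrl region 4.41 kb from Cdkn1a, for a cell cycle inhibitor. The bins of chromosomes 1 and 17 missed with the top 5000 peaks (limma adjusted p = 0.0517 each). That of chromosome 17 also missed when ranked by fold enrichment (limma adjusted p = 0.0889). The part of the unlike thresholds of the lists in the cover of all these bins was not tested.

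**Figure D5:**
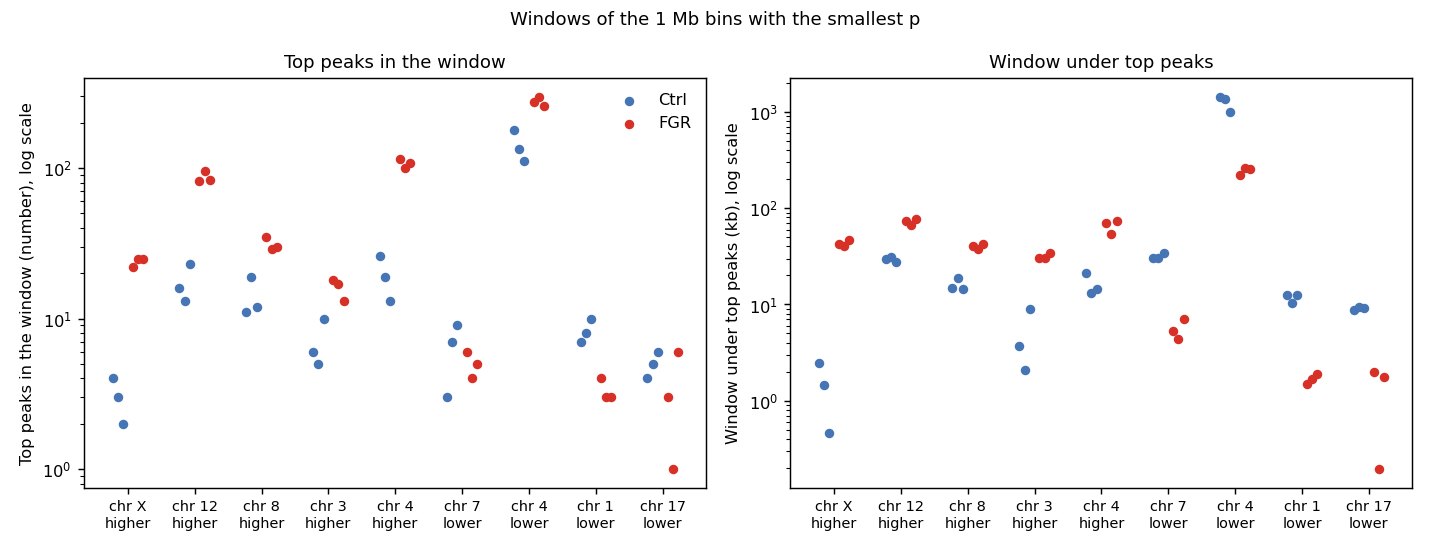
Number of top H3K9me3 peaks (left) and kb under them (right), both on log axes, in the windows of the bins with the smallest p, 1 point per library; higher or lower names the direction of kb in FGR. On chromosome 4 from 145 to 148 Mb the FGR libraries have more peaks (260 to 296 against 111 to 178) and fewer kb (222 to 262 against 990.1 to 1426).

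Merged over the 6 libraries, the top peaks formed 63923 regions, of which 136 held a top peak in all 6. A further 191 had one in every Ctrl and no FGR library and 3805 in every FGR and no Ctrl library, as a description with no test; the difference in number follows the poor overlap of Ctrl replicates. The longest FGR regions were in Flg2 (chr3:93203042-93216372), in Flg (chr3:93280214-93293136), 24.5 kb from Mid1 on X (chrX:170009839-170020735), in a gene desert 312.8 kb from the nearest gene (chr3:6297404-6307826) and in Grk5, for a kinase of G-protein-coupled receptors (chr19:60925448-60933979). The longest Ctrl regions after that near Apba2 were on X near Btbd35f6 (chrX:33920385-33935008), on chromosome 9 near Alkbh8 (chr9:3301893-3310364), in Brinp3 (chr1:146603902-146612185) and near Cdkn1a (chr17:29101108-29109157). The 5 longest regions shared by all 6 were in the Zfp cluster of chromosome 4, the first 117584 bp long, with 112, 108 and 88.7 kb covered in Ctrl and 13.7, 21.8 and 22.3 kb in FGR.

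Shared and exclusive regions differed in kind. Of the 136 shared regions, 27.2% lay on chromosome 4, 15.4% in clustered families and 16.2% touched an active mark. Of the 3805 FGR regions, 37.4% lay in gene deserts, 22.9% in gene bodies and 0.473% touched an active mark, and of the 191 Ctrl regions 27.7%, 33.0% and 3.14%. The FGR regions were not blank in Ctrl. In the full Ctrl lists, which covered 17.9%, 15.9% and 10.8% of the genome, 74.7%, 80.0% and 76.6% of the 3805 regions were touched and 41.4%, 48.0% and 43.0% of their length was covered. The best Ctrl peak at a touched region had a median rank of 14.4%, 21.0% and 35.5% of the way down its list.

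Replicate 4 gave a check with other peak calls, although the peak names inside both of its lists carry the number 5 and not 4, which leaves a doubt about which libraries they are. Of the 257 Ctrl peaks, 94.9%, 93.0% and 89.5% touched top peaks of Ctrl replicates 1 to 3, and 50.6%, 54.9% and 54.5% those of FGR replicates 1 to 3. Of the 11204 FGR peaks, 59.0%, 60.2% and 63.1% touched top peaks of the FGR replicates, and 9.87%, 7.37% and 5.29% those of Ctrl. Each list thus touched its own group more often. Chromosome 12 held 6.62% of the FGR peaks, and 2.33% (6 peaks) of those of Ctrl, and 25.6% of FGR peaks on chromosomes 1 to 19 and X lay in gene bodies against 34.2% of the 199 such peaks in Ctrl. Other shares ran against replicates 1 to 3. Chromosome 4 held 27.6% of the Ctrl and 8.04% of the FGR peaks, chromosome 7 8.56% and 7.68%, and Zfp genes 21.6% and 1.67%. An active mark was touched by 21.1% of Ctrl and 0.751% of FGR peaks. With 1 narrow list per group these values have no test.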

How the data were processed

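H3K9me3 was measured by ULI-NChIP-seq, chromatin immunoprecipitation of native chromatin from few cells. The submitters' processing notes name mm10, the peak caller MACS2 2.2.7.1, the aligner Bowtie2 2.4.5, DiffBind 3.12.0, SAMtools 1.3.1 and Trim Galore 0.6.5, but not their settings. The deposited broad lists give, per peak, a fold enrichment (a ratio over background made by the authors), a −log10 p-value, a −log10 q-value and a whole-number score; the caller options are not given in any source used here. Depth is unknown, and the 2 input libraries were not used.

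Peaks were ranked by −log10 p-value (ties by fold), the top 15000 kept, and placed on 21627 protein-coding genes of a RefSeq table of GRCm38.p6. Percent covered was tested with limma 3.58.1 (R 4.3.3; lmFit, eBayes; Benjamini-Hochberg, threshold 0.05) on genes or 1 Mb bins with a top peak in at least 2 libraries, and chromosomes on log2(percent + 0.1); the fits were tested on simulated data. Values per library used two-sided exact permutation tests. Pairs of libraries shared at most 0.0222% of identical peaks, so each counted as 1 sample. The members and gene lists were chosen with earlier results of these data known. Named genes were the 10 with the largest difference per direction (at most 3 per list), up to 2 passing members per list or, where none passed, up to 2 with the most coverage; named bins were the 5 with the smallest p and named regions the 5 longest.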

Additional observations from a re-analysis of the deposited data

Results flagged for a closer look

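Replicate 4, whose narrow lists entered no comparison, held 55 FGR peaks in the bin of chromosome 12 from 19 to 20 Mb and 32 in the bin of chromosome X from 170 to 171 Mb, while replicate 4 of Ctrl had 0 in both. The Ctrl list held 257 peaks in all and the FGR list 11204, and the part of list length in these values was not tested.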

How the results depend on the processing

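Peak lists hold no reads, so depth could not be matched. The groups were called at different thresholds, and equal numbers of top peaks do not make these equal. Under the alternatives run, the share in clustered families, the share under active marks and the median distance to genes kept their direction, with differences of 0.583 to 2.61 percentage points, −0.31 to −31.5 percentage points and −8.73 to −55.4 kb. The share in gene bodies and in deserts kept theirs except at a −log10 q of at least 2, where only 33, 45 and 42 Ctrl peaks were left.

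With a −log10 q of at least 2, the difference was 0.392 percentage points in gene bodies, 6.80 in deserts and 3.94 Mb in covered length. Under this filter 2 chromosomes were higher and 2 lower, 1 gene was lower, 855 bins were higher and 0 lower, and exclusive regions numbered 3 in Ctrl and 943 in FGR. The order turned for Zfp988 (3.51 percentage points), Zfp980 (1.47), Zfp600 (9.54), Zfp984 (2.94), Zfp992 (21.8), Zfp978 (16.3), Zfp981 (11.985), Zfp991 (5.74), Zfp993 (2.43), Sp140 (0.882) and E030030I06Rik (0.755), for the bins of chromosome 7 at 64 Mb (0.118), chromosome 4 at 147 (8.43) and 146 Mb (4.91) and chromosome 17 at 29 Mb (0.0143), and for chromosomes 1 (log2 difference 3.03), 3 (2.45), 5 (−0.023), 11 (3.31), 12 (−0.32), 14 (2.30), 15 (5.02), 16 (0.25), 18 (3.16), 19 (2.33) and X (−0.035). The filter was the same for both groups and kept 33, 45 and 42 peaks in Ctrl and 4466, 6202 and 5332 in FGR. The cause of this difference was not tested.

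With all deposited peaks, whose Ctrl lists are far longer, 15 genes were higher and 7824 lower, 1 bin higher and 2524 lower, and exclusive regions numbered 119779 and 315. The order turned for Olfr165 (−24.1 percentage points), Olfr631 (−20.05), Vmn2r35 (−42.7), Vmn2r38 (−30.9), H2-T24 (−12.3), Hrnr (−20.6), Smok2b (−52.0), Prdm9 (−12.6), Casp8 (−28.5), Sirt5 (−20.2) and the bins of chromosome 12 at 19 Mb (−58.1), chromosome 8 at 55 Mb (−14.7), chromosome 3 at 93 Mb (−19.9) and chromosome 4 at 152 Mb (−13.5).

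With the top 5000 peaks, 4 chromosomes were lower, 17 genes higher and 5 lower, 5 bins lower, and exclusive regions numbered 89 and 676. Ranking by fold gave 9 genes lower and 62 bins higher. Equal covered length gave 155 bins higher and, by construction, a difference in covered length of 0.00044 Mb. A trend in eBayes gave 33 genes higher and 11 lower, quantile normalization 85 bins higher, and a 50% overlap rule 122 and 1827 exclusive regions. The cause of these changes was not tested.

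Leaving out each replicate gave 60 to 140 genes higher and 16 to 78 lower, 5 to 82 bins higher and 2 to 80 lower, and 198 to 718 exclusive regions in Ctrl, where the rule is looser with fewer libraries. Deviations of same-numbered libraries correlated at −0.0243, 0.0105 and −0.0504 over genes and −0.184, 0.163 and −0.148 over bins. Differently numbered libraries reached 0.0882 over genes and 0.259 over bins. With 3 libraries per group these values cannot decide whether the numbers pair samples. With the number as a replicate block, 12 genes were higher and 5 lower, 7 bins higher and 3 lower, and chromosomes kept 5 and 12. Without the Zfp genes of the chromosome 4 bins, an alternative chosen after seeing the data, the difference in covered Zfp length went from −4.24 to −0.254 percentage points.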
